A study of Mus musculus with 3 samples.

Results

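Heat shock proteins and other chaperones were followed in the choroid plexus epithelium (CPE), the single epithelial cell layer that covers the choroid plexus and secretes cerebrospinal fluid into the brain ventricles. Probes were taken by their gene name on the array: names that begin with Hsp and a, b, c, d, e, h or a digit, all Dnaj names, Cct2 to Cct8, Bag1 to Bag6, and *Tcp1*, *Stip1*, *Hsf1* and *Hsf2*. Control probes were left out. The rule used no measured value, and it found 82 of the 27845 gene names on the array, with 151 of its 41174 probes. The names on the array are old in places: *Hsp110* is now *Hsph1*, *Dnajb10* is now *Dnajb2*, and *Hspc171* is now *Tmem208*, which is not a chaperone. The group consisted of 3 healthy adult C57BL/6 mice, listed by the study as female, and all 3 arrays belonged to it. CPE cells were cut by laser dissection from frozen sections of the whole brain, the RNA was amplified, and it carried Cy5, the red dye. On every array it met the same reference RNA, which came from RPE/choroid (the retinal pigment epithelium and the vascular layer behind it) of the same strain and carried Cy3, the green dye. The dyes were never swapped, so a preference of a probe for a dye remains in each ratio. Since the reference was the same RNA on each array, its own spread between animals is not part of any p-value.

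Chaperones help other proteins to reach and keep their fold. HSP70 proteins bind and release unfolded stretches in a cycle driven by ATP, J-domain proteins (the Dnaj genes) bring them their clients, and BAG proteins and HSP110 proteins exchange the nucleotide. HSP90 proteins receive clients from HSP70 through the adaptor Stip1, chaperonins enclose a client in a ring, and small heat shock proteins hold unfolded proteins until they can be refolded. The endoplasmic reticulum, the cytosol and the mitochondrion each have their own members. In a secretory epithelium, which exports large amounts of protein such as transthyretin, the members of the endoplasmic reticulum fold the secreted proteins. The transcription factor HSF1 switches on many cytosolic members under heat or other stress, and the unfolded protein response switches on those of the endoplasmic reticulum.

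The arrays differed in depth of signal. In the CPE channel, 18932 probes in mouse 2, 24079 in mouse 1 and 35233 in mouse 3 were well above background, against 28259 to 34654 in the reference channel. Of the chaperone probes, 121, 135 and 146 were well above background in CPE in mouse 2, 1 and 3, and none was saturated. Of 10 CPE marker genes, 8 were higher in CPE than in the reference, with a median log2 ratio of 2.50, and *Slc4a5* and *Otx2* stood at -0.09 and 0.14. Markers of other cell types were mostly lower in CPE: 5 of 7 RPE genes, 7 of 7 photoreceptor, 5 of 5 melanocyte, 5 of 5 stroma, 5 of 6 lens, 7 of 9 muscle, 4 of 6 neuron and 3 of 5 macrophage genes fell. Of 5 endothelium genes limma called 0, with 3 at an unadjusted p under 0.05. All defining markers except *Tyr* of the melanocytes were well above background in CPE on at least 1 array. The summed level of the photoreceptor markers ran from 12.25 to 12.70 in CPE and from 17.39 to 17.43 in the reference on the log2 scale. Each ratio below therefore compares CPE with a mixture of eye cell types, and a change in cell number and a change in RNA per cell cannot be told apart in such samples. The part of these other cell types in the results below was not tested.

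The first question was which chaperones differ between CPE and the reference. Of the 151 probes, 130 probes of 76 genes had a signal clearly over background in all mice, in CPE or in the reference, and were tested, 119 of them in both channels, 10 through the reference alone and 1 through CPE alone. Called probes are those with a limma adjusted p under 0.05 whose mean ratio reached 2-fold. Higher in CPE were 17 probes of 14 genes (13.1% of those tested, where 7.09% of all tested probes were called higher). Lower were 11 probes of 9 genes (8.46%, where 10.2% of all tested probes were called lower). The share called higher lay above the background and the share called lower just under it. Of all 25840 tested probes, 7366 were tested through the reference alone, where a call of higher is hardly possible. Among probes measured in both channels, 16 of 119 chaperone probes and 1615 of all 17945 were called higher, so the excess was smaller there. Called lower there were 11 and 2030. Every one of the 28 called probes had the same sign in 3 of 3 mice, as had 4449 of all 4462 called probes. The call itself nearly requires this. The median log2 ratio of the tested chaperone probes was 0.15, against -0.04 over all tested probes. The balance of the calls rests on the normalization: when each array was centred on its median in place of loess, 35 chaperone probes were higher and 3 lower (both of *Hspa1a* and 1 of *Dnajb6*), and the share of all calls that were higher rose from 41.1% to 67.0%.

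**Figure D1:**
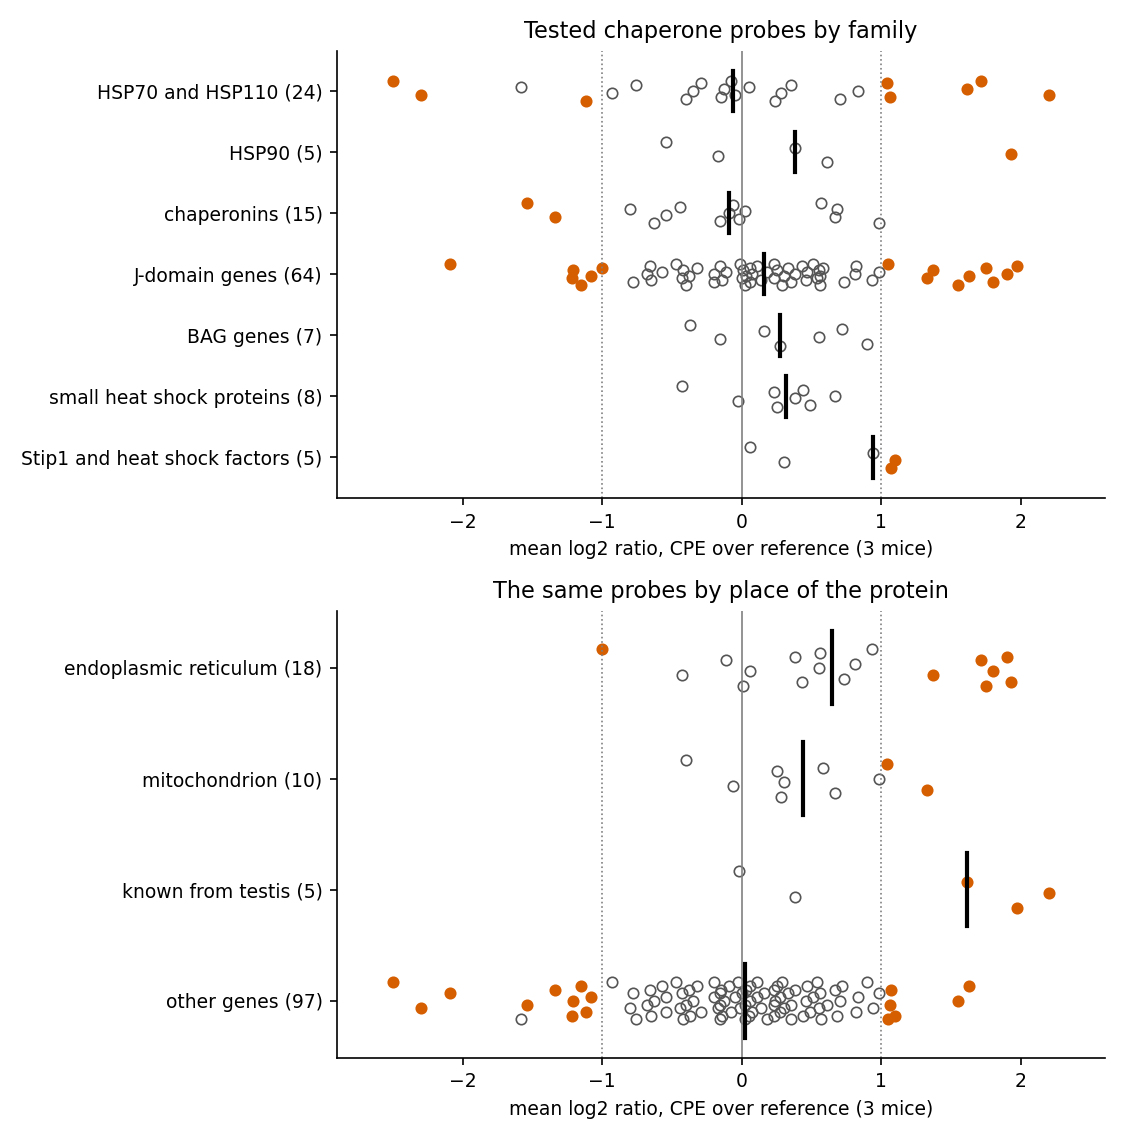
Mean log2 ratio of CPE over reference for the tested chaperone probes, in the upper panel by family and in the lower panel by the place where the protein works or the tissue it is known from (number of probes in brackets). The grouping by place was made after the values were seen. Each circle is 1 probe, filled where it was called, bars are medians and dotted lines mark a 2-fold change; the 18 probes of the endoplasmic reticulum have a median of 0.64, and the 97 probes of other genes a median of 0.02.

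Several chaperones of the endoplasmic reticulum were higher in CPE. Of 18 tested probes of 7 genes, 6 probes of 4 genes (*Hspa5*, *Hsp90b1*, *Dnajb9* and *Dnajc3*) were called higher, which is 33.3% against the background of 7.09%. All 18 were measured in both channels, and of all 17945 such probes 1615 were called higher. Called lower was 1 probe, of *Dnajc1*. The split by place of the protein, here and below, was made after the values were seen, so such shares are descriptions. The 18 probes had a median log2 ratio of 0.64, and with the arrays centred on their medians 12 of them were called higher. That centring called 3744 of all 25840 tested probes higher. *Hspa5* (BiP), the HSP70 of this compartment, had log2 ratios of 1.87, 1.58 and 1.69 in mouse 1, 2 and 3. Its mean was 1.71 ± 0.15 (SE, n = 3; limma adjusted p = 0.000164), a 3.28-fold higher signal in CPE. *Hsp90b1* (GRP94), the HSP90 of this compartment, had 2.10, 2.00 and 1.69 at its brighter probe, with a mean of 1.93 (limma adjusted p = 0.000118). *Dnajb9* (ERdj4), a J-domain partner of BiP, was called higher at 3 of 3 probes. At its brightest probe the ratios were 1.76, 1.92 and 1.71, and at a second probe 1.99, 2.00 and 1.71. The remaining *Dnajb9* probe gave 2.31, 1.03 and 1.91, with mouse 2 below the others. *Dnajc3* (p58IPK), a J-domain inhibitor of the stress kinase PERK, had 4 tested probes with mean ratios of 1.37, 0.81, 0.73 and 0.56, of which the first was called. *Dnajb11* (ERdj3), which brings clients to BiP, had 1.06, 1.01 and 0.73, with a mean of 0.93 (limma adjusted p = 0.00299) that stayed under the 2-fold limit. *Dnajc10* (ERdj5), a reductase that breaks disulfide bonds, ran from -0.11 to 0.55 over its 4 probes. *Dnajc1* (ERdj1), a membrane protein that binds ribosomes, was called lower at 1 of 3 tested probes with -0.24, -2.10 and -0.66. That call rests on mouse 2: without it the mean was -0.45, and the call was also lost without mouse 3.

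The promoters of these genes were searched for a known element, as a description only. The ER stress element, through which the unfolded protein response acts, was searched as CCAAT, 9 bases of any kind and CCACG on both strands, from 250 bases before to 50 bases after each gene start in the RefSeq promoters of build GRCm38.p6; this motif was chosen after the ratios had been seen. Promoters were found for 67 of 81 chaperone genes (*Tmem208* left out), 87 promoters in all. The element was present in 3 of the 87 promoters (3.45%) and in 39 of all 32851 promoters (0.119%). Its 3 holders were *Hspa5*, *Hsp90b1* and *Dnajc3*, so it was found in 3 of the 7 genes of the endoplasmic reticulum. Each of the 3 had a probe called higher. The unfolded protein response is known to switch on genes of this compartment, so these matches are no independent support for the ratios. *Dnajb9*, the remaining gene with higher probes, did not hold these letters in this window. The shorter CCACG on either strand was present in 6 of the 7 promoters of the endoplasmic reticulum genes (85.7%). It was also present in 53 of the 87 chaperone promoters (60.9%) and in 32.8% of all promoters, so it is not particular to the endoplasmic reticulum genes. The 250 bases before the start of the 3 holders are shown because they carry the element, with its letters in capitals. They lie at chr2:34771840-34772089 on the plus strand (*Hspa5*), chr10:86705445-86705694 on the minus strand (*Hsp90b1*) and chr14:118937682-118937931 on the plus strand (*Dnajc3*). The element begins 65 bases before the start in *Hspa5* and 105 in *Dnajc3*, and *Hsp90b1* holds it at 212 and, on the other strand, at 107 bases before the start.
Hspa5: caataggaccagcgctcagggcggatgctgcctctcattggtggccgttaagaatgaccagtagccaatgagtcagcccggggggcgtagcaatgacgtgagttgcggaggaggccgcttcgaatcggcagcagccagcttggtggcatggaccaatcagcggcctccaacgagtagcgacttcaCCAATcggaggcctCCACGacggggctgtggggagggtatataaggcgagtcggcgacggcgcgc
Hsp90b1: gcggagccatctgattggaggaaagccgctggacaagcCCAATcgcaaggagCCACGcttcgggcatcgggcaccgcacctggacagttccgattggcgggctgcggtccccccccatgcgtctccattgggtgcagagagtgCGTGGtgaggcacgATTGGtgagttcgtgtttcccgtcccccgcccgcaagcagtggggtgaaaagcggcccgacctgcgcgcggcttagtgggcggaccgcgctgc
Dnajc3: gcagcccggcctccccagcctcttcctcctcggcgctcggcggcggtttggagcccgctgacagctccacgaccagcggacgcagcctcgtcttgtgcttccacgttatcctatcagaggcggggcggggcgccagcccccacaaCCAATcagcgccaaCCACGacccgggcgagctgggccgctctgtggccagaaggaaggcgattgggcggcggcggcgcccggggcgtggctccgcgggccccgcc

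Folding factors whose names the rule did not match were counted from a list of 64 genes, all on the array, of which 62 were tested. Of their 101 tested probes, 12 probes of 11 genes were higher in CPE (11.9%, background 7.09%) and 7 probes of 6 genes were lower (6.93%, background 10.2%), and the median ratio was 0.00. Among the higher genes, *Pdia3*, *Pdia4* and *Pdia6* (disulfide isomerases), *Calr* and *Canx* (lectin chaperones), *Hyou1* and *Sil1* (exchange factors of BiP) and *Sdf2l1* work in the endoplasmic reticulum. *Pdia3* had 2.36, 2.32 and 2.01, and *Pdia4* 2.42, 1.89 and 1.76. *Calr* was called at both probes, with means of 1.94 and 1.50, and *Canx* at 1 of 3 probes, with a mean of 1.40 against 0.73 and -0.20 at the others. *Pdia6* was called at 1 of 4 tested probes, with a mean of 1.10, and the others had 0.63, -0.17 and -0.36, the last with -2.07 in mouse 2. The other genes called higher were *Fkbp8* at 2.17, *Nudc* at 1.57 and *Stub1* at 1.17, which work outside that compartment. The lower genes included 2 transcription factors of the unfolded protein response: *Atf4* had -1.50, -2.20 and -1.04, and *Ddit3* (CHOP) -1.12, -1.39 and -0.69. *Xbp1*, a further factor of this response, had a mean ratio of 0.03 (limma adjusted p = 0.908). Of the response, *Atf6* had means of 0.34 and 0.29 and *Eif2ak3* (PERK) -0.35, and neither was called. Listed genes of the endoplasmic reticulum that were not called include *Manf* at 0.71, *Serpinh1* at 0.69, *Creld2* at 0.41 and *P4hb* at -0.38. At their called probes the genes of this compartment named as higher were above the reference in 3 of 3 mice, and *Atf4* and *Ddit3* below it. The calls themselves nearly require this. The remaining lower genes were *Cryaa*, a lens crystallin (-3.08 and -4.60 at its probes), *Cdc37l1* (1 of 4 tested probes), *Sgtb* and *Pdcl* (1 of 2 tested probes).

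Chaperones of the mitochondrion had 10 tested probes of 7 genes, with 2 probes higher (background 7.09%), 0 lower (background 10.2%) and a median ratio of 0.44. With limma, 6 of the 10 had an unadjusted p under 0.05. An adjusted p under 0.05 was reached by 5 of the 10 and by 10125 of all 25840 tested probes. Centring on the median called 5 higher and 0 lower, and it called 3744 of all 25840 higher. *Hspa9* (mortalin), the HSP70 that pulls proteins into the mitochondrion, had 1.13, 0.94 and 1.06 at its brighter probe, with a mean of 1.04 (limma adjusted p = 0.00153). Its other probe had 0.80, -0.52 and 0.55. *Dnajc15*, a J-domain protein of the import motor, had 1.31, 1.42 and 1.26, while *Dnajc19*, its relative in the same machine, had -0.38, -0.42 and -0.41. These relatives did not overlap in any mouse. *Hspd1* (HSP60), the chaperonin of the matrix, had 1.07, 0.90 and 0.98 at its brighter probe (mean 0.98, limma adjusted p = 0.00197), just under the 2-fold limit. *Hspe1* (HSP10), its lid, had -0.03, 0.10 and -0.24. The other *Hspd1* probe had 0.95, 0.10 and 0.95. *Hspd1* and *Hspe1* stand side by side in the genome and act as a complex, and the brighter *Hspd1* probe lay above *Hspe1* in every mouse, while in mouse 2 the other probe was level with it.

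The stress-inducible HSP70 gene *Hspa1a* was the lowest of the called chaperones. It had -2.72, -2.42 and -2.37 at one probe and -2.37, -2.25 and -2.27 at the other. These are means of -2.50 ± 0.16 and -2.30 ± 0.15 (SE, n = 3; limma adjusted p = 3.58e-05 and 4.01e-05), a 5.68-fold and a 4.91-fold lower signal. The probes overlap by their position, chr17:34577877-34577936 and chr17:34577907-34577966 of build mm8, so they are not independent measurements. *Hspa1a* kept its call in every alternative tried, with mean ratios of -1.91 and -1.76 after median centring. Its near copy *Hspa1b* had -1.39, -1.34 and -0.63 at one probe (mean -1.12, limma adjusted p = 0.00349) and 0.15, 0.15 and 0.43 at the other. The lower probe was under the 2-fold limit without mouse 1, at -0.99. A probe cannot separate such near-identical genes with certainty. Of 8 immediate early genes, which handling or stress can induce, 4 were lower in CPE and 0 were higher. Of all tested probes, 10.2% were called lower and 7.09% higher. The 8 genes had a median ratio of -1.02, with a summed level of 11.38 to 11.60 in CPE and 12.72 to 12.83 in the reference. Other chaperones named below as inducible, *Dnajb1*, *Bag3* and *Hsp90aa1*, were not called. Whether the ratios of *Hspa1a* and of the immediate early genes had one source was not tested.

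Heat shock elements, the letters to which HSF1 binds, were searched as GAANNTTC or TTCNNGAA in the same windows. They were present in 21 of the 87 chaperone promoters (24.1%) and in 15.1% of all promoters. The stricter form with 3 units in a row, which contains the shorter one, was present in 6 of 87 (6.90%) and in 0.603% of all promoters. The 6 belong to *Hsph1* and *Dnajb6*, with 2 promoters each, and to the neighbours *Hspd1* and *Hspe1*, so they are not independent. By gene the form was present in 4 of 67 chaperone genes and in 179 of all 27025 genes. Of the 19 genes with these letters, 5 (*Hspa1a*, *Hspa1b*, *Dnajb4*, *Dnajb6* and *Cct6a*) had a probe called lower, 1 (*Dnaja4*) had one called higher, and the rest had none, among them *Dnajc5g*, which was tested at no probe. Over the whole array, 2246 of 17841 tested genes had a probe called lower and 1565 had one called higher. The 250 bases before the start are shown for *Hspa1a* (chr17:34972157-34972406, minus strand), the chaperone gene furthest below the reference, and for *Dnajb6* (chr5:29735648-29735897, plus strand), which holds the 3 units and was also lower. Capitals mark the heat shock letters. The same window of *Hspa1b* differed from that of *Hspa1a* at 3 of 250 bases (98.8% identical) and holds the same letters.
Hspa1a: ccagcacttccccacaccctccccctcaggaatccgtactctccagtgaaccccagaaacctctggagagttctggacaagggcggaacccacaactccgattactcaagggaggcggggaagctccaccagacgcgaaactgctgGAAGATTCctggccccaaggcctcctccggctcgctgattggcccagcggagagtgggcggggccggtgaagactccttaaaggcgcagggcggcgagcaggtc
Dnajb6: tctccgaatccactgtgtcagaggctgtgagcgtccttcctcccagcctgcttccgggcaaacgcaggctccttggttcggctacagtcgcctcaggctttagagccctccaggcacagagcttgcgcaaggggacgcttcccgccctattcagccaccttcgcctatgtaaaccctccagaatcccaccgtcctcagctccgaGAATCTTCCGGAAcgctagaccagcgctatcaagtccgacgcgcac

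The HSP70 and HSP110 family as a whole, *Hspa5*, *Hspa9*, *Hspa1a* and *Hspa1b* included, had 24 tested probes. Of these, 5 were higher (20.8%, background 7.09%) and 3 lower (12.5%, background 10.2%), and the 3 lower were those of *Hspa1a* and *Hspa1b*. The median ratio of -0.06 changed sign with the scaling, to 0.45 after median centring. Among the remaining genes only *Hspa2* and *Hspa12a* had called probes, all of them higher. *Hspa2*, known for its part in sperm formation and also made in other tissues, was higher at both probes, with 2.13, 2.61 and 1.85 at one and 2.02, 1.76 and 1.03 at the other. Its means were 2.20 (limma adjusted p = 0.000128), or 4.58-fold, and 1.61 (limma adjusted p = 0.00102), and every mouse was above a 2-fold change. *Hspa12a*, a distant relative, was called at 1 of 3 tested probes (1.16, 1.53 and 0.48, mean 1.06), and this call was lost without mouse 2, at 0.82. Its other tested probes lay below the reference in every mouse, with means of -0.40 and -0.76 (limma adjusted p = 0.159 and 0.0203). *Hspa14*, a partner of the ribosome, had -0.90, -0.74 and -1.17, and *Hsph1*, an exchange factor for HSP70, had 0.93, 1.16 and 0.41. Both had a limma adjusted p under 0.05 and stayed under 2-fold. *Hspa4* and *Hspa4l*, relatives of *Hsph1*, ran from -0.35 to 0.70 over 3 probes and from -0.29 to -0.05 over 4 probes. *Hspa8* (HSC70), the constant HSP70 of the cytosol, had -0.31, -0.27 and 0.14 at its brighter probe, close to the reference in all mice. Its other probe had -0.53, -3.99 and -0.21, and 1 mouse set its mean of -1.58 (limma adjusted p = 0.0884).

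**Figure D2:**
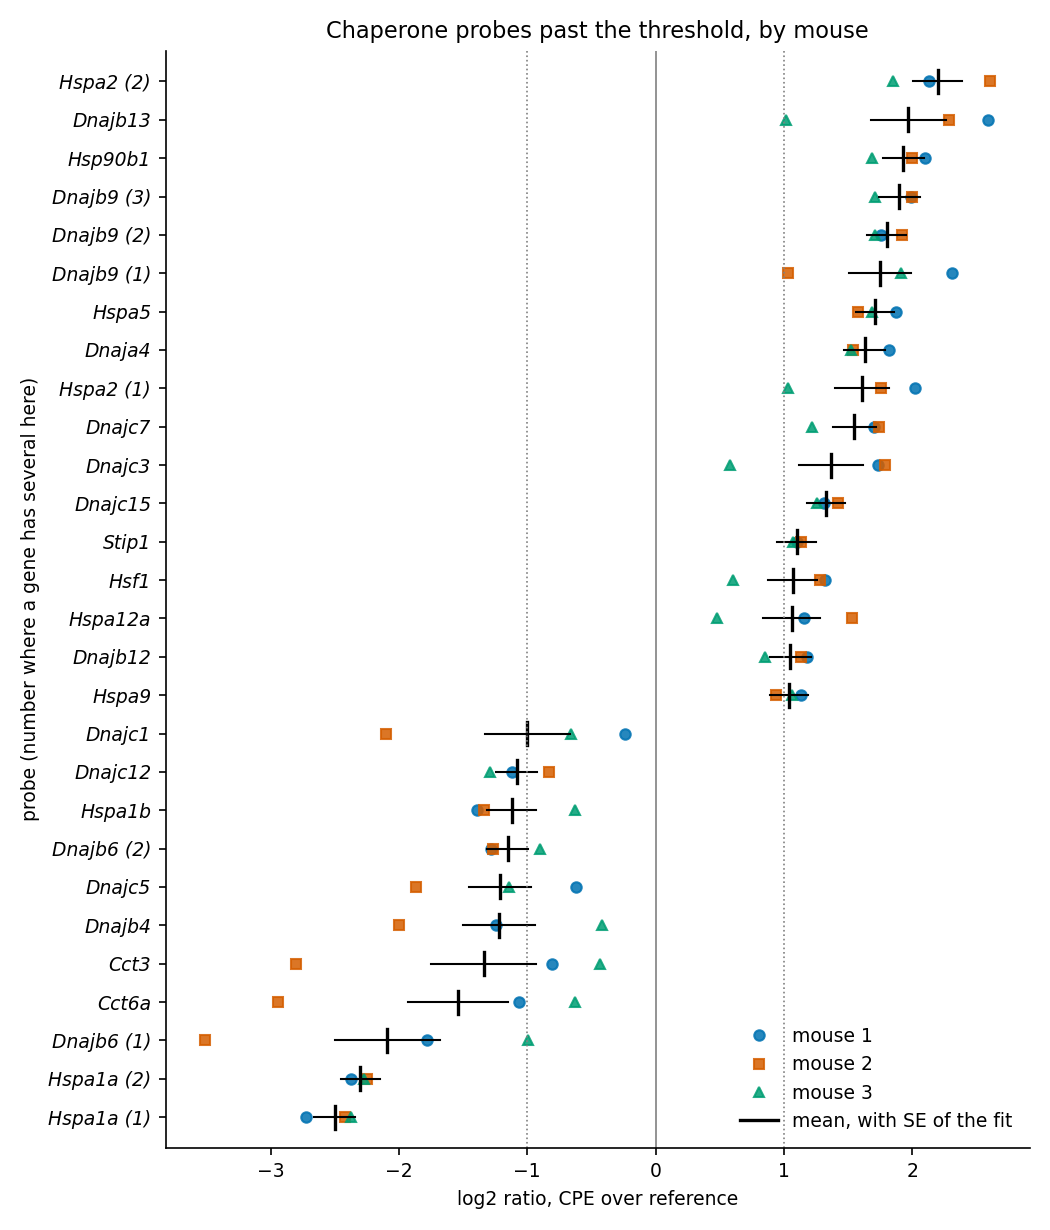
Log2 ratio of CPE over reference in each mouse for the 28 chaperone probes that were called, ordered by their mean, with the mean and its SE from limma as black marks and dotted lines at a 2-fold change. Among the higher probes the mice lie close together for *Hspa5*, *Hsp90b1* and *Stip1*, while mouse 2 lies lowest for *Cct3*, *Cct6a*, *Dnajb4*, *Dnajc5*, *Dnajc1* and a probe of *Dnajb6*.

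HSP90 genes gave strong signals in both tissues. All 5 probes of the 3 genes ranked above the 90th percentile of all probes in CPE and in the reference. *Hsp90aa1*, the inducible form of the cytosol, had ratios of -0.63, -0.33 and -0.66 (mean -0.54, limma adjusted p = 0.0289). *Hsp90ab1*, the constant form, had 0.88, 0.00 and 0.94 at its brighter probe (mean 0.61, limma adjusted p = 0.0575). At these probes *Hsp90ab1* lay above *Hsp90aa1* in every mouse, and neither mean reached 2-fold. The other probe of *Hsp90ab1* had 0.86, -1.96 and 0.58, below *Hsp90aa1* in mouse 2, and the other probe of *Hsp90b1* had 1.58, -0.92 and 0.48. Mouse 2 lay below 0 at these second probes while the other mice lay above it. Of this family, *Hsp90b1* of the endoplasmic reticulum alone was called, at 1 of its 2 probes.

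The cytosolic chaperonin is a ring of different subunits, and its genes did not show 1 common ratio. The 15 tested chaperonin probes, *Hspd1* and *Hspe1* included, held 0 higher (background 7.09%) and 2 lower (13.3%, background 10.2%) by limma, with 9 at an unadjusted p under 0.05. An adjusted p under 0.05 was reached by 8 of them and by 10125 of all 25840 tested probes. Their median of -0.09 became 0.54 after median centring. It called 3 of them higher and 0 lower, and 3744 of all 25840 higher. *Cct7* stood above the reference at 0.66, 0.41 and 0.63 (limma adjusted p = 0.0219), and *Cct5* and *Cct8* below it, with means of -0.44 and -0.16. *Cct4* had means of -0.80 and -0.54 at its probes, each with a limma adjusted p under 0.05 and under 2-fold. *Tcp1* had means of 0.68 and -0.09 at its probes and *Cct2* of 0.02 and -0.63, and neither pair was called (limma adjusted p = 0.0793 and 0.309). The lower *Cct2* probe had 0.11, -1.90 and -0.09, so that mouse 2 set its mean. *Cct3* and *Cct6a* were called lower, with -0.81, -2.80 and -0.43 and with -1.06, -2.94 and -0.63. Both calls rest on mouse 2, and without it the means were -0.62 and -0.84, under 2-fold. *Cct6b*, a form known from testis, had -0.02.

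J-domain genes formed the largest family, with 77 probes of 38 genes, of which 64 probes of 33 genes were tested. Of these, 9 were higher (14.1%, background 7.09%) and 6 lower (9.38%, background 10.2%), and the median ratio was 0.16. The share called lower was thus near that of all tested probes. *Dnajb13*, a protein of the axoneme of motile cilia and sperm tails, had 2.59, 2.29 and 1.02 (mean 1.97, limma adjusted p = 0.00166). It was the one member tested through CPE alone, since the reference was well above background on 1 of 3 arrays. A call of such a probe can hardly be other than higher, and the size of its ratio rests on a weak reference signal. A second *Dnajb13* probe was not above background in either channel. *Dnaja4*, a partner of HSP70 in the cytosol, had 1.82, 1.54 and 1.52 at its called probe, 1 of 2 tested, and *Dnajc7*, which links HSP70 and HSP90, had 1.70, 1.74 and 1.22. *Dnajb12*, which sits in the membrane of the endoplasmic reticulum, faces the cytosol and was counted with the other genes, had 1.18, 1.13 and 0.85 at its called probe, which stood at 0.99 without mouse 1, and a mean of 0.29 at its other tested probe. *Dnajb1* (HSP40), the inducible partner of HSP70, had 0.18, 0.15 and -0.02 at its brighter probe and 0.29, -0.54 and 0.44 at the other. Both means, 0.11 and 0.06, were near the reference.

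Among the lower J-domain genes, *Dnajb6*, which keeps proteins from aggregating, was called at 2 of 3 probes. One had -1.78, -3.51 and -0.99 (mean -2.09, limma adjusted p = 0.006) and the other -1.28, -1.27 and -0.90 (mean -1.15, limma adjusted p = 0.00135), while the last had -0.64, 0.22 and -0.72. Without mouse 2 the first mean was -1.39 and the call was kept. *Dnajb4* had -1.24 and -0.42 in mouse 1 and 3 at its called probe, with mouse 2 lowest and a mean of -1.22, and its other tested probes had means of -0.66 and -0.47. *Dnajc5* (cysteine string protein), a chaperone of secretory vesicles, had -0.62, -1.87 and -1.14 at its called probe. Both calls were lost without mouse 2, at -0.83 and -0.88. *Dnajc12* had -1.12, -0.83 and -1.29, and stood at -0.97 without mouse 3. *Dnajc8*, a partner of splicing factors, had means of -0.65 and -0.78 at its probes, and neither probe reached 2-fold.

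The BAG genes and the small heat shock proteins gave no call in either direction, where 7.09% of all tested probes were called higher and 10.2% lower. For each group 3 probes had an unadjusted p under 0.05 with limma, of 7 and of 8 tested. *Bag4* had the largest mean of the BAG genes, 0.90 at one probe and -0.16 at the other. *Bag3*, an inducible partner of *Hspb8*, had means of 0.72 and 0.16, *Bag2* had 0.55, *Bag1* 0.27 and *Bag5* -0.37. *Hspb1* (HSP25) had -0.22, -0.66 and -0.42 at the probe at its locus on chromosome 5. A second probe named *Hspb1* maps to chromosome 13 and was not tested. *Hspb8* had 0.38, 0.18 and 0.91, *Hspb6* 0.76, -0.24 and 0.80, and *Hspb7*, best known from heart muscle, 0.66, 0.82 and 0.54 (limma adjusted p = 0.0113). *Hspb2* had means of 0.25 and 0.23, *Hspb3* had -0.03, and *Hspb9*, known from testis, had 0.38. Median centring called 1 probe higher in each of these groups, and 3744 of all 25840 tested probes.

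*Stip1* (HOP), the adaptor between HSP70 and HSP90, was higher in CPE, with 1.10, 1.13 and 1.07, the smallest spread between mice of the called probes (SD 0.03). Its mean was 1.10 (limma adjusted p = 0.00111). *Hsf1*, the heat shock transcription factor, had 1.32, 1.28 and 0.60 at its called probe (mean 1.07), and this call fell under 2-fold without mouse 1, at 0.94, and without mouse 2, at 0.96. A second *Hsf1* probe had 1.10, 1.33 and 0.38 and the last 0.64, -0.09 and 0.37. *Hsf2*, a relative, had -0.12, -0.14 and 0.44. The called probe of *Hsf1* lay above the reference in 3 of 3 mice, and those of *Hspa1a*, which HSF1 activates under stress, lay below it. Being called higher or lower nearly requires this, so it is no finding about HSF1 and this gene. At the last *Hsf1* probe mouse 2 lay below the reference, at -0.09.

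The study sorted probes by their rank in CPE, and by this measure chaperones ranked high. The mean red signal placed 47 of the 151 chaperone probes (31.1%) in the high class above the 90th percentile, where 10% of all probes lie, 81 in the moderate, 18 in the low and 5 in the very low class. Ranks among probes detected in CPE on all arrays put 17 in the high class. Of the chaperone probes, 119 were detected in both channels and 1 in CPE alone. Since 10% of the detected probes lie in that class, the excess of chaperones was much smaller by this ranking. In the reference channel 47 chaperone probes were also above the 90th percentile, so the ranking is not particular to CPE. A rank depends on how well a probe hybridises and does not order genes by abundance. *Hspa5* and *Hsp90aa1* ranked at the 99.8th percentile and *Hspa8* at the 99.1st in CPE. The 14 probes of genes known from testis were spread over the classes, with 1 high, 5 moderate, 5 low and 3 very low, and 5 of them were tested. Of these 10 genes, *Hspa2* and *Dnajb13* had called probes, *Cct6b* and *Hspb9* were tested and not called, and *Hspa1l*, *Dnajb3*, *Dnajb7*, *Dnajb8*, *Dnajc5b* and *Dnajc5g* were tested at no probe.

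Probes of one gene were compared with each other in the same array. For 37 genes, 54 pairs set a probe against the brightest tested probe of its gene, and 6 pairs (11.1%) differed at a limma adjusted p under 0.05 and at least 2-fold, where 13.6% of all 7999 pairs on the array did. Chaperone genes thus had about as many discordant probes as the array as a whole. In 13 of the 54 pairs the probes had means of opposite sign, as in 2298 of all 7999 pairs. The 6 genes were *Hsp90b1*, *Dnaja4*, *Bag4*, *Dnajc5*, *Hspa1b* and *Hspa12a*. The brighter probe of *Hsp90b1*, at chr10:86120824-86120883 of build mm8, had log2 ratios of 2.10, 2.00 and 1.69, and its other probe, at chr10:86128383-86128442, had 1.58, -0.92 and 0.48. The brighter probe lies 7559 bases further toward the 3′ end. In *Dnaja4* the brighter probe also lies nearer the 3′ end and had 1.82, 1.54 and 1.52 against 0.96, -0.01 and 0.44. In *Bag4* the brighter probe lies 2046 bases nearer the 5′ end and had 0.96, 1.12 and 0.62 against 0.19, -0.36 and -0.31. In *Hspa1b* the difference of 1.36 ± 0.20 (SE, n = 3; limma adjusted p = 0.00467) was kept without each mouse in turn, at 1.27 to 1.51. The same reference RNA gave an SD of 1.25 between arrays at its other probe, against a median of 0.16 over tested chaperone probes. The signal of that probe was therefore unsteady. The other pairs did not all keep their call: without mouse 2 those of *Hsp90b1*, *Dnaja4*, *Bag4* and *Dnajc5* fell to -0.87, -0.97, -0.85 and 0.89, and without mouse 1 that of *Hspa12a* had a limma adjusted p of 0.0594. Without mouse 3, *Hsp90b1*, *Bag4* and *Dnajc5* had adjusted p-values of 0.0915, 0.0509 and 0.0889.

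**Figure D3:**
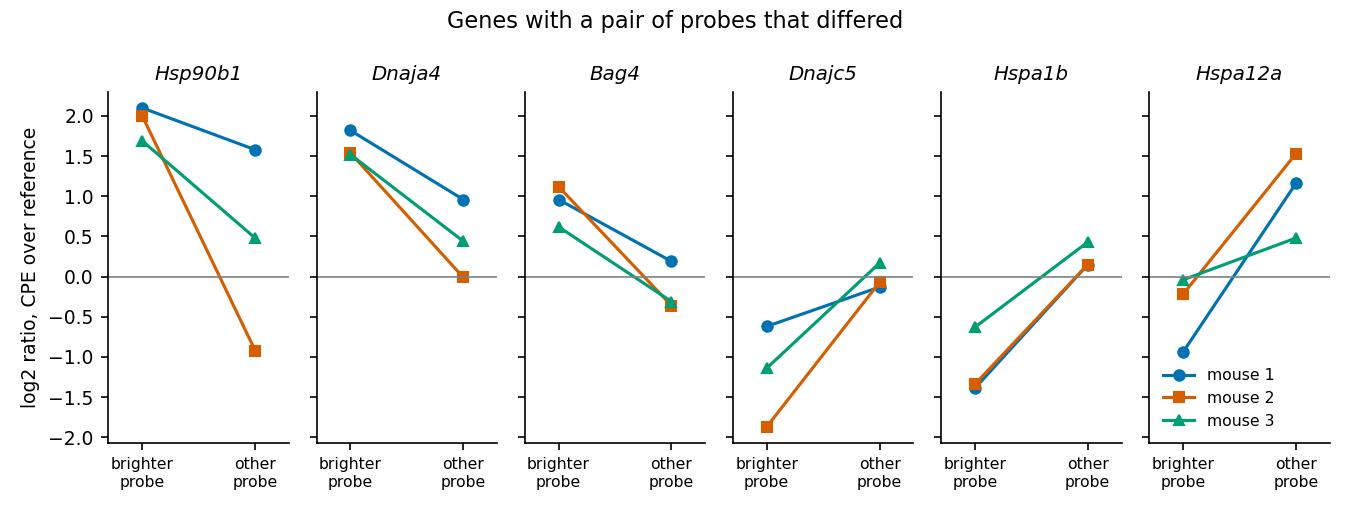
Log2 ratio of CPE over reference at the brighter and the other probe of the 6 genes whose pair differed, with a line for each mouse. The lines slope the same way in 3 of 3 mice in each gene, which the call of a pair nearly requires, and for *Hsp90b1* mouse 2 falls from 2.00 to -0.92.

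The largest differences between mice at the chaperone probes came from mouse 2, and more often at the 5′ than at the 3′ probe of a gene. The median SD of the ratio between mice was 0.29 over the tested chaperone probes and 0.26 over all tested probes. The largest SDs were those of the second probe of *Hspa8* (2.10), the second probes of *Hsp90ab1* (1.55) and *Hsp90b1* (1.25), a probe of *Dnajb6* (1.29) and the probe of *Cct3* (1.27), and mouse 2 was lowest in each. The reference channel at these probes had SDs between 0.08 and 0.35. Mouse 2 lay at least 2-fold below the mean of the other mice in 14 chaperone probes (10.8%), against 3.06% of all tested probes. Mouse 3 lay that far below in 1.54% of the chaperone probes and in 3.32% of all tested probes. Over the whole array mouse 2 was therefore not the one most often low. In 35 chaperone genes with tested probes at least 100 bases apart, the outermost probes were compared, as the deviation of a mouse from the other mice at the 5′ probe minus that at the 3′ probe. In mouse 2 its median was -0.58, against 0.45 in mouse 1 and 0.37 in mouse 3. Over all 5336 such genes the medians were -0.29, 0.13 and 0.18. In mouse 2 the value was below 0 in 28 of the 35 genes (80.0%, against 72.5% of all genes) and at or under -1 in 10 (28.6%, against 11.6%). It was lowest for *Hspa8* (-3.43), whose probes lie 1532 bases apart, and for *Dnajb6* (-3.02), *Cct2* (-2.08), *Hsp90b1* (-2.06) and *Hsp90ab1* (-1.78). The 3′ probe of *Hspa8* had an SD of 0.25, against 2.10 at the 5′ probe, so the spread of this gene was a spread of 1 probe. The array of mouse 2 also had the fewest probes above background in CPE, and the part of this in the result was not tested.

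**Figure D4:**
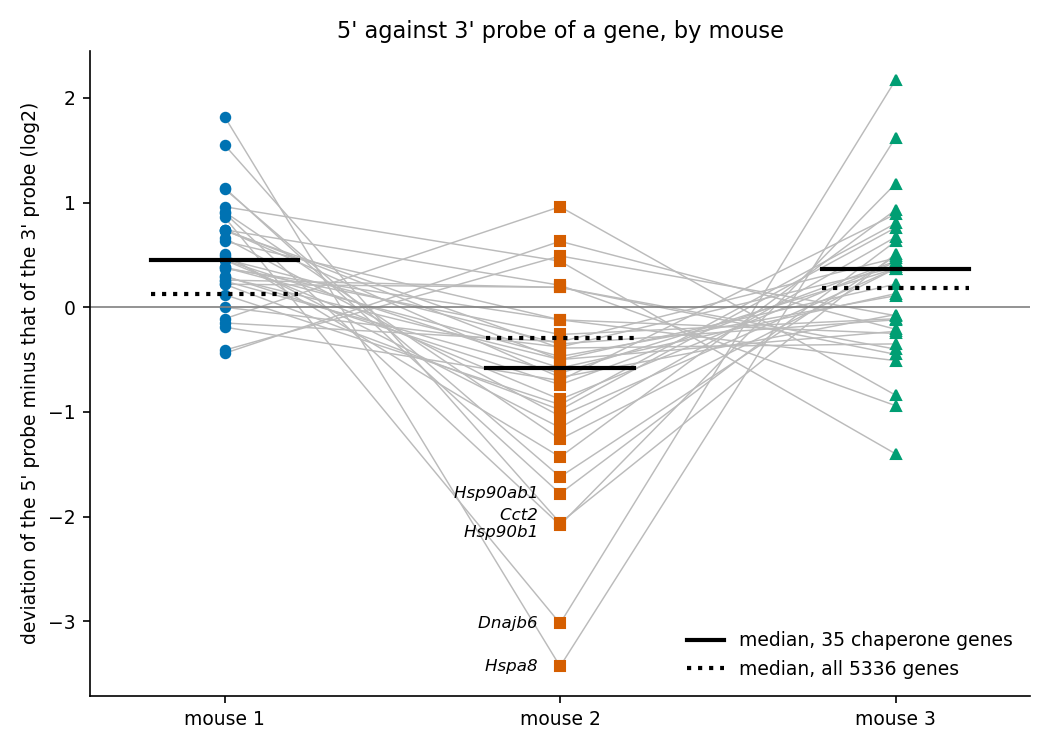
Deviation of each mouse from the other mice at the 5′ probe minus that at the 3′ probe, on the log2 scale, for 35 chaperone genes. Points are genes, grey lines join a gene across mice, black bars are medians over these genes and dotted bars medians over all 5336 genes; mouse 2 has the lowest median, -0.58, and *Hspa8* and *Dnajb6* lie lowest in it.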

How the data were processed

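Arrays (Agilent 44K) were scanned by the authors with Feature Extraction 9.5.3.1; R 2.14.0 and limma are also named in the submitters' processing notes. The deposited scanner tables give, per spot, intensity in the red and green channels and its local background, flags for saturation, outliers and signal above background, and, per the file headers, the log10 ratio of the processed signals. A deposited table gives log2 values of the CPE channel, normalized between arrays by the authors (rank correlation with the red signal 0.998 to 0.999). The amplification kit copies RNA from the poly(A) end, so probes far from it depend on the length of the copies. RNA quality values were not used here.

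From the scanner intensities, with R 4.3.3 and limma 3.58.1, background was corrected by normexp (offset 50), loess was applied within arrays, spots that were controls or outliers were dropped and the rest averaged by probe. Probes well above background on 3 of 3 arrays in either channel were tested (25840 of 41174), with limma on the mean log2 ratio against 0 and Benjamini-Hochberg adjustment over all of them. The replicates are the 3 mice, and so few arrays limit the precision. Pairs of probes of a gene were fitted the same way over all pairs. The method was tested on simulated data. Classes follow the study: high above the 90th percentile, moderate to the 50th, low to the 10th. Percentiles used the red signal after Aquantile. Probes were named by accession (123 chaperone probes) or symbol (28), and their coordinates are mm8, a build without an annotation here, so no exon or intron is named. Promoters are from RefSeq (GRCm38.p6).

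The members and lists were chosen with earlier results of these data known. Named with values were the called probes of each family with the 3 largest ratios in each direction, genes with a differing probe pair, the 5 probes with the largest SD, all HSP90, chaperonin and small heat shock members, and *Hsf1*, *Hsf2*, *Stip1*, *Hspa8*, *Hspa5*, *Hspa9*, *Hspa1a* and *Hspa1b*. The other named members, and the split by place of the protein, were chosen after their values were seen. No member had only a bound of 4-fold or more. Alternatives were other background corrections, scalings, filters and tests, and leaving out each mouse.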

Additional observations from a re-analysis of the deposited data

How the results depend on the processing

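Of the 28 called chaperone probes and the 6 called probe pairs, none changed sign under any alternative that gave a value; the other probes were not followed one by one. Tested against a 2-fold change (limma treat), 8 chaperone probes were called, 6 higher and 2 lower, with 5 and 2 of the other folding factors: the 8 were both *Hspa1a* probes, *Hspa5*, *Dnaja4*, 2 of *Dnajb9* and 1 each of *Hspa2* and *Hsp90b1*. With the arrays centred on their medians, which moved the median of all tested probes from -0.04 to 0.09, 35 chaperone probes were higher and 3 lower (19 of them shared with the 28 calls of loess), 12 probes of the endoplasmic reticulum were higher, 23 of the other folding factors were higher and 3 lower, 0 probe pairs were called (9 of 54 at an unadjusted limma p under 0.05), and the median SD between mice was 0.70. The cause was not tested.

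Without replicate 2, 7 chaperone probes were lower; leaving out each mouse in turn gave 25 to 32 called, 15 to 23 higher, 7 to 12 lower, 6 to 8 higher in the endoplasmic reticulum, 10 to 12 higher and 6 to 8 lower among the other folding factors, 46 to 49 in the high class, 2 to 7 probe pairs and a median SD of 0.21 to 0.28. The scanner's own log ratio called 1 probe pair, and pairs measured in both channels gave 3. Ranked among probes well above background in CPE alone, 17 chaperone probes were in the high class. Weights fitted to the arrays were 1.89, 0.953 and 0.554 for mouse 1, 2 and 3. Counts of chaperone probes called were 24 to 32 under the other background correction, the scanner's ratio, other filters and array weights. No paired analysis was possible because all samples belong to 1 group and each ratio is already formed within an array. The signal above background in CPE, lowest in mouse 2, limits what can be said of weak probes.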
